A study of Arabidopsis thaliana with 18 samples.

Results

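The enzymes that carry sulfate into cysteine and into sulfated glucosinolates are described here across 6 Arabidopsis thaliana genotypes. They were taken by gene identifier and symbol, and 10 of the 33602 genes in the count table belong to them. They are 4 ATP sulfurylases, APS1 (AT3G22890), APS2 (AT1G19920), APS3 (AT4G14680) and APS4 (AT5G43780), and 3 APS reductases, APR1 (AT4G04610), APR2 (AT1G62180) and APR3 (AT4G21990). The others are the APS kinases APK1 (AT2G14750) and APK2 (AT4G39940) and the sulfite reductase SIR (AT5G04590). All 10 passed the filter on low counts and were tested.

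Sulfate that enters a leaf cell is chemically inert until ATP sulfurylase joins it to ATP, giving adenosine 5′-phosphosulfate, abbreviated APS like the enzyme genes themselves. The pathway then forks. APS reductase makes sulfite, which sulfite reductase turns into the sulfide used for cysteine, while APS kinase adds a further phosphate to make PAPS, the sulfate donor with which sulfotransferases finish glucosinolates, the defence compounds of the cabbage family. In Arabidopsis, APS1, APS3 and APS4 transcripts are targets of the microRNA miR395 and APS2 is not. APR2 carries most of the leaf APS reductase activity, and APK1 and APK2 are the main kinases for glucosinolate sulfation.

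RNA came from whole rosettes of the Columbia-0 ecotype, taken at 18 days, 6.5 h after subjective dawn under 16 h of light and 8 h of dark at 23 °C, and 5 rosettes from different pots were pooled for each library. The genotypes, with 3 libraries each, were wild type, ref5-1, ref2-1, the double mutant med5a-1 med5b-1, and each of the single mutants joined with both med5 alleles. The pair med5a-1 med5b-1 is written med5, and the triple mutants accordingly ref5-1 med5 and ref2-1 med5. The ref5-1 allele is a missense change in CYP83B1, a cytochrome P450 of indole glucosinolate synthesis, ref2-1 removes function of CYP83A1, its counterpart for aliphatic glucosinolates, and MED5A and MED5B belong to Mediator, a bridge between transcription factors and the polymerase. The comparisons ask what each glucosinolate lesion does to these transcripts and whether loss of MED5 alters that. In pooled tissue of this kind, fewer cells of a type and less RNA per cell cannot be told apart.

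Libraries held 19578169 to 33193849 gene counts, and 22002 to 22606 genes had at least 1 count. Levels are CPM, read counts scaled to library size, and a mean is given ± SD with n = 3 libraries. CYP83A1 averaged 123 CPM in ref2-1 against 402 CPM in wild type, and in med5 MED5B averaged 6.68 CPM against 24.5 CPM and MED5A 31.6 CPM against 49.5 CPM, all 3 called lower. MED5A was also called lower in ref2-1, at 39.1 CPM. CYP83B1 averaged 247 CPM in ref5-1 and 254 CPM in wild type, and a missense allele cannot be checked by its transcript level. The 5 leaf photosynthesis markers summed to 23682 to 32846 CPM in every library. Summed flower markers stayed at or under 9.56 CPM, and of the 3 root markers COBL9 and EXPA7 were at or near 0. Of the 4 flower markers, 2 were called lower in ref5-1 than in wild type and 3 lower in ref5-1 med5 than in med5. In ref2-1 med5 against ref2-1, 3 were called higher. The part of the flower markers in the results was not tested.

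In some genotypes 1 library was highest or lowest for most of the enzymes. Wild type replicate 3 was the highest wild type library for 9 of the 10 genes and replicate 1 the lowest for 9. In ref2-1, replicate 2 was the lowest of its genotype for 9 genes. The ref5-1 libraries were mixed, with replicate 1 the highest for 4 genes and the lowest for 5, and in ref5-1 med5 the highest library was replicate 1 for 4 genes and replicate 3 for 5. A call is described as lost where its adjusted p rose to 0.05 or more. Calls of the 10 enzymes that rest on one of these libraries are given with and without it below. Sums, ratios and shares over enzyme families, and the named calls of other genes, are given with all libraries only.

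To compare levels between genes, CPM were divided by exon length in kilobases. In wild type APS1 was highest at 254 ± 44.6 CPM per kb. SIR followed at 146 ± 22.2 CPM per kb, and then came APR2 at 133 ± 14.6, APS2 at 124 ± 3.26, APK1 at 119 ± 24.6 and APK2 at 116 ± 22.1, also in CPM per kb. The library ranges of neighbours from SIR to APK2 in this order overlapped, so their order is within the spread. APR1 at 80.7 ± 12.98 CPM per kb lay below all of these, without overlap. APR3 at 36.7 ± 7.04 and APS3 at 28.4 ± 4.08 CPM per kb overlapped each other, and APS4 was lowest at 10.4 ± 1.80 CPM per kb. Of each family, then, APS1 and APR2 were the most abundant transcripts per length, and the 2 kinases were nearly level.

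**Figure D1:**
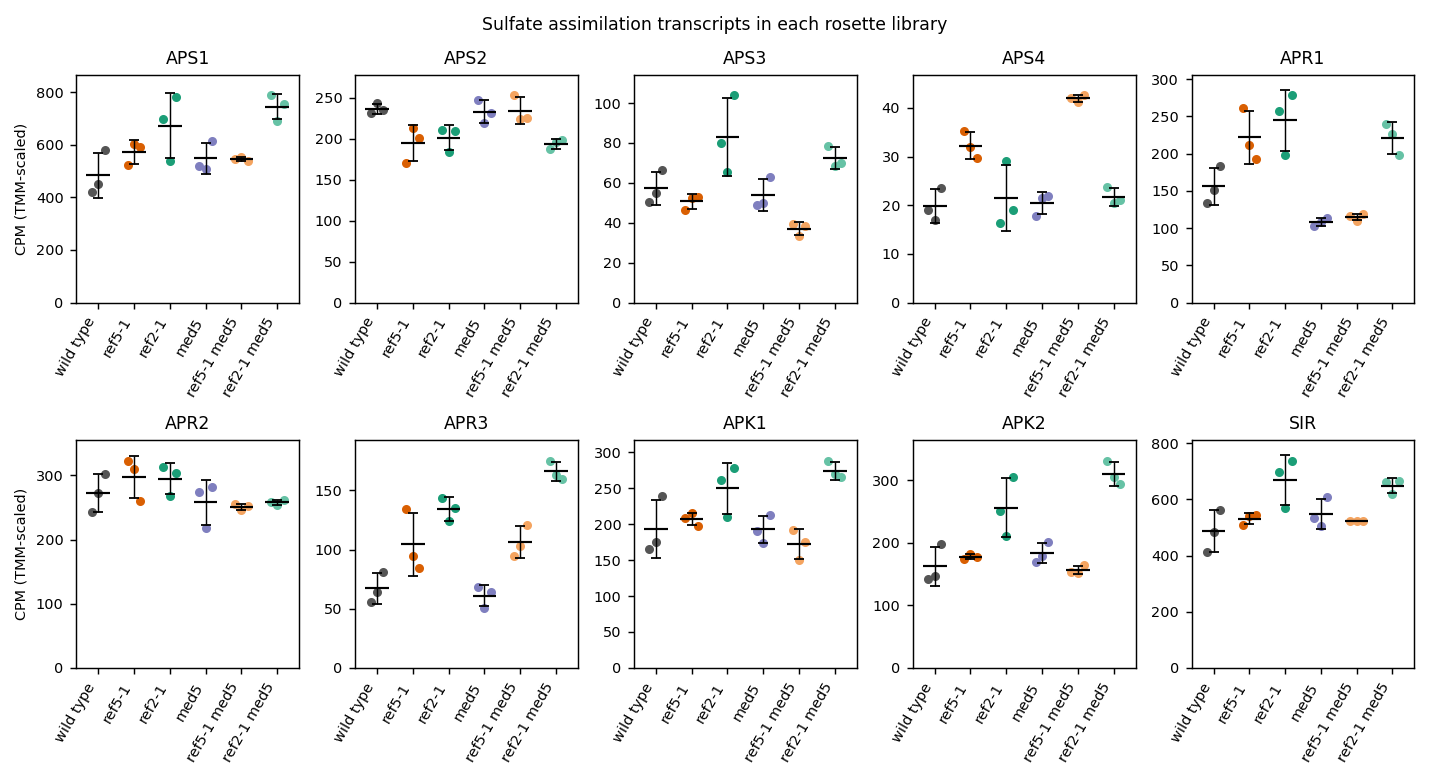
CPM of the 10 sulfate assimilation enzyme genes in every library, 1 panel per gene, with genotype along the horizontal axis. Points are libraries, the short line is the mean and the bar the SD over 3 libraries. APR1, APR3 and APK2 stand higher in ref2-1 and ref2-1 med5 than in wild type and med5, and APS4 stands higher in ref5-1 and ref5-1 med5.

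In ref2-1, with its lesion in aliphatic glucosinolate synthesis, most of the enzymes were called. Against wild type, ref2-1 had higher transcript of 7 of the 10 enzymes, namely APS1, APS3, APR1, APR3, APK1, APK2 and SIR. APS2 was lower, and APS4 and APR2 were not called. The calls used edgeR's quasi-likelihood test with Benjamini-Hochberg adjustment over all 19897 tested genes, at an adjusted p under 0.05, and 13.5% of all tested genes were called higher and 11.2% lower in the same comparison. The 8 calls became 4 without wild type replicate 1 or without ref2-1 replicate 3, 5 without wild type replicate 2 and 5 in a fit to the 6 compared libraries. The median log2 fold change was 0.47 over the 10 enzymes and 0.00146 over all tested genes. In the same libraries the summed leaf markers ran from 23682 to 25306 CPM in ref2-1 and from 28514 to 30449 CPM in wild type, and their part in the result was not tested.

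Fewer of the enzymes were called in ref5-1, with its lesion in indole glucosinolate synthesis, but fewer of all tested genes were called too. APS1 and APK1, called in ref2-1 and not in ref5-1, were not called between ref5-1 and ref2-1 (edgeR adjusted p = 0.209 and 0.154). In ref5-1, APS4, APR1 and APR3 were higher than in wild type and APS2 was lower, against a background of 5.12% of tested genes called higher and 3.60% lower. The median log2 fold change of the 10 enzymes was 0.13, beside -0.00416 for all tested genes. These calls too depended on single libraries. On leaving out ref5-1 replicate 1, or either of replicates 1 and 2 of wild type, edgeR called 0 of the 10 genes, with 4 or 5 at an unadjusted p under 0.05, and a fit to the 6 compared libraries called 1, APS4. The summed root markers, nearly all of it the beta-glucosidase gene BGLU23, reached 356 to 408 CPM in ref5-1 against 95.8 to 155 CPM in wild type, while COBL9 and EXPA7 stayed at or near 0 in both. The part of BGLU23 in the result was not tested.

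Where MED5 was missing, each allele was compared with med5. In ref2-1 med5, APS1, APR1, APR3, APK1 and APK2 were higher and APS2 lower, while 8.75% of tested genes were called higher and 7.52% lower. Without med5 replicate 1, or without ref2-1 med5 replicate 1, 3 were called, APR1, APR3 and APK2. The summed leaf markers were 23976 to 26217 CPM in ref2-1 med5 against 30487 to 32846 CPM in med5, with 3 of 5 called lower, and the root markers summed to 157 to 185 against 62.4 to 109.5 CPM, with BGLU23 called higher. Their part in the result was not tested. In ref5-1 med5, APS4 and APR3 were higher and APS3 was lower, against 6.24% and 4.20% of tested genes. The median log2 fold changes over the 10 enzymes were 0.44 in ref2-1 med5 and -0.0225 in ref5-1 med5, beside 0.0159 and 0.0017 for all tested genes.

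**Figure D2:**
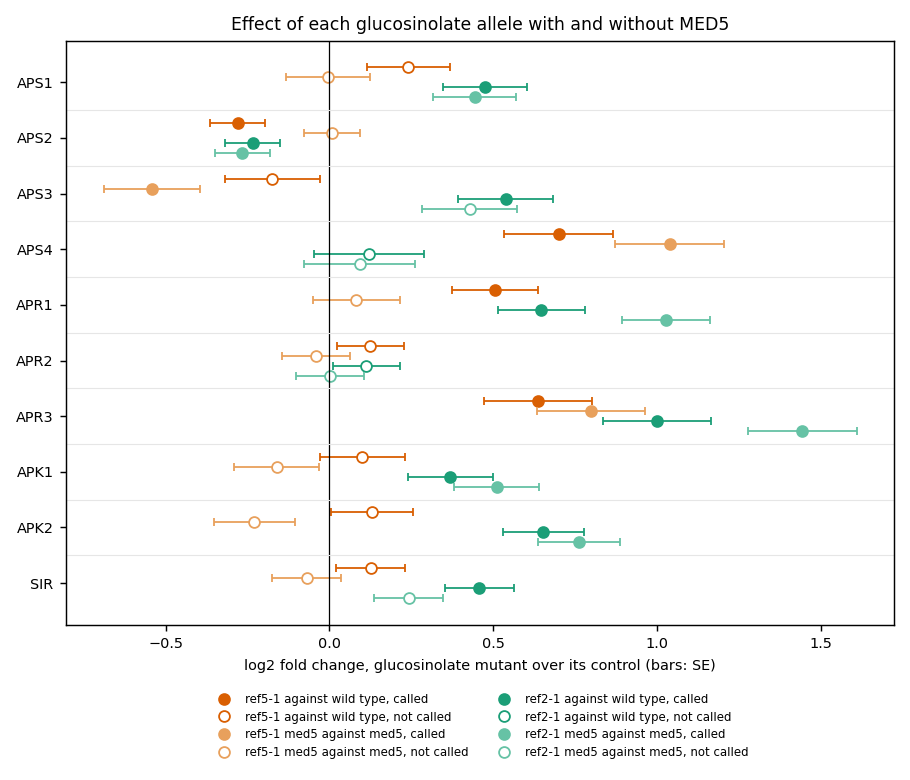
Log2 fold change of each enzyme gene for ref5-1 and ref2-1 against wild type and for the triple mutants against med5. Filled points passed the test, open points did not, and bars are SE. APR3 rose in all 4 comparisons, and APS4 rose in both that involve ref5-1.

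Loss of MED5 in otherwise wild-type plants gave 0 calls among the 10 enzymes by edgeR, where 0.337% of tested genes were called higher and 0.442% lower. APR1 was the 1 gene with an unadjusted p under 0.05, and it was also the 1 that DESeq2 called. In the ref5-1 background, loss of MED5 lowered 1 enzyme, APR1, with 6.09% of tested genes called higher and 4.71% lower. There 5 enzymes had an unadjusted p under 0.05, and DESeq2 called 3, adding APS2 higher and APS3 lower. An edgeR fit to the compared libraries alone also called 3, but there APS3 lower (adjusted p = 0.0275) and APS4 higher (adjusted p = 0.0447) were added. In the ref2-1 background 0 enzymes were called by edgeR and 0 by DESeq2, with 1 at an unadjusted p under 0.05, APK2, and 4.65% and 4.26% of tested genes called. The median log2 fold changes of the 10 enzymes for these 3 comparisons were -0.0145, -0.127 and -0.0165, beside -0.00171, 0.00327 and -0.000474 for all tested genes.

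Whether the effect of each allele differed with and without MED5 was tested as an interaction. For ref5-1, edgeR called 0 of the 10 enzymes and DESeq2 0, with 2 at an unadjusted p under 0.05, APS2 and APR1, where 0.0302% of tested genes were called higher and 0.0603% lower. For ref2-1, edgeR called 0, DESeq2 0, and 0 had an unadjusted p under 0.05, against 0.457% and 0.292% of tested genes. An allele effect called with MED5 and not called without it is therefore not shown to differ between the backgrounds.

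The first step is taken by the ATP sulfurylases, and its members did not move together. APS1, the plastid enzyme with the most transcript, had 419.8, 452 and 581 CPM in wild type and 697, 540.1 and 784 CPM in ref2-1. These ranges overlapped, with ref2-1 replicate 2 below wild type replicate 3. The log2 fold change was 0.48 ± 0.13 (edgeR adjusted p = 0.0106), and the call was lost on leaving out replicate 1 (adjusted p = 0.0755) or replicate 2 (0.0518) of wild type or replicate 3 of ref2-1 (0.0714). In the absence of MED5 the groups separated, with 520.5, 509 and 616 CPM in med5 and 789, 692 and 756 CPM in ref2-1 med5, a log2 fold change of 0.44 ± 0.13 (edgeR adjusted p = 0.0246). This call was lost without replicate 1 or 2 of med5 or replicate 1 or 3 of ref2-1 med5 (adjusted p 0.0629 to 0.102). In ref5-1 APS1 had 521, 603 and 593 CPM, which overlapped wild type and was not called (log2 fold change 0.24 ± 0.13, edgeR adjusted p = 0.276).

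APS2, the isoform found in both plastids and cytosol, moved the other way. Its wild type libraries were close together at 232, 244 and 235 CPM. All 3 libraries of ref5-1, at 171, 213 and 201 CPM, and all 3 of ref2-1, at 211, 184 and 209.6 CPM, lay below them. The differences were small, 1.21-fold lower in ref5-1 (log2 -0.28 ± 0.084, edgeR adjusted p = 0.0462) and 1.18-fold lower in ref2-1 (log2 -0.23 ± 0.084, edgeR adjusted p = 0.04995). With another library scaling the adjusted p-values became 0.0603 and 0.052, and both calls were also lost on leaving out most single libraries, 5 of 6 in ref5-1 (adjusted p 0.0611 to 0.178) and 6 of 6 in ref2-1 (0.0538 to 0.194). APS2 stayed low in ref2-1 med5, at 187, 196 and 198 CPM against 248, 219 and 232 CPM in med5 (log2 -0.27 ± 0.085, edgeR adjusted p = 0.0393), a call lost in 5 of the 6 fits without 1 library and kept without med5 replicate 2. In ref5-1 med5 it had 253, 224 and 226 CPM and overlapped med5.

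APS3 and APS4 were both low in transcript. APS3 had 50.4, 54.9 and 66.3 CPM in wild type, then in ref5-1 46.5, 52.6 and 52.9 CPM and in ref2-1 80.05, 65.4 and 104 CPM. Its rise in ref2-1 was 1.45-fold (log2 0.54 ± 0.14, edgeR adjusted p = 0.0114) although the lowest ref2-1 library lay just under the highest wild type library. Without wild type replicate 1 the adjusted p was 0.0685 and without ref2-1 replicate 3 it was 0.074. In ref5-1 med5, APS3 had 39.4, 33.3 and 38.3 CPM, below all med5 libraries at 48.7, 49.9 and 62.9 CPM (log2 -0.54 ± 0.15, edgeR adjusted p = 0.026), and this call was lost without med5 replicate 3 or without ref5-1 med5 replicate 2 or 3 (0.0576 to 0.113). In ref2-1 med5 its 78.5, 68.5 and 70.1 CPM lay above med5 without passing the test (log2 0.43 ± 0.15, edgeR adjusted p = 0.0535). The difference was called by DESeq2 (adjusted p = 0.0375), in the compared libraries alone (0.0195) and without med5 replicate 3 (0.0315).

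APS4, the least abundant isoform, was high wherever ref5-1 was present. From 19.1, 16.9 and 23.6 CPM in wild type it went to 35.1, 32.0 and 29.7 CPM in ref5-1, with no overlap, a rise of 1.62-fold (log2 0.70 ± 0.17, edgeR adjusted p = 0.0147). Leaving out replicate 1 of wild type, replicate 2 of wild type or replicate 1 of ref5-1 gave adjusted p-values of 0.0598, 0.0873 and 0.0646. The rise was 2.06-fold without MED5, from 17.8, 21.5 and 22.0 CPM in med5 to 42.1, 41.2 and 42.6 CPM in ref5-1 med5 (log2 1.04 ± 0.17, edgeR adjusted p = 0.000664), and this call held in all 6 fits without 1 library. Beside it, the summed root markers were 369 to 438 CPM in ref5-1 med5 and 62.4 to 109.5 CPM in med5. Nearly all of this was BGLU23, with COBL9 and EXPA7 at or near 0, and its part in the result was not tested. In ref2-1, APS4 had 16.4, 29.2 and 19.03 CPM, with replicate 2 apart from the others, and in ref2-1 med5 it had 23.8, 20.4 and 21.1 CPM, close to its level in wild type and med5.

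The APS reductases draw sulfate towards cysteine, and APR1 and APR3 moved in both lesions. APR3 had 56.0, 64.1 and 81.2 CPM in wild type, then in ref5-1 134, 94.4 and 84.3 CPM and in ref2-1 144, 124 and 135 CPM. All libraries of both mutants lay above wild type. It rose 1.56-fold in ref5-1 (log2 0.64 ± 0.16, edgeR adjusted p = 0.0232) and 2.00-fold in ref2-1 (log2 1.00 ± 0.16, edgeR adjusted p = 0.000436). The ref5-1 call was lost without its replicate 1 (log2 0.41, adjusted p = 0.112) and without wild type replicate 1 (0.111) or 2 (0.103), and the ref2-1 call held in all 6 fits without 1 library.

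Without MED5 the APR3 rise was still there. Against 68.1, 50.7 and 64.3 CPM in med5, ref5-1 med5 had 94.7, 103 and 121 CPM and ref2-1 med5 had 175, 163 and 160.0 CPM, with no overlap in either case. These were rises of 1.74-fold (log2 0.80 ± 0.17, edgeR adjusted p = 0.00524) and 2.72-fold (log2 1.44 ± 0.17, edgeR adjusted p = 5.08e-05), and both held in all 6 fits without 1 library. The interaction for ref2-1 was 0.44 ± 0.23 on the log2 scale with an edgeR adjusted p of 0.361. APR3 was therefore called higher in each of the 4 allele comparisons.

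APR1, like APR3, was called higher in ref5-1 and ref2-1 where MED5 was present. Against med5, APR1 was called in ref2-1 med5 and not in ref5-1 med5. APR1 and APR3 were not tested against each other, and the ref5-1 interaction was called for neither (edgeR adjusted p = 0.529 and 0.893). In wild type APR1 had 134, 152 and 183 CPM, in ref5-1 261, 211 and 193 CPM and in ref2-1 257, 199 and 278 CPM. Both mutants lay above wild type in all libraries, by 1.42-fold in ref5-1 (log2 0.51 ± 0.13, edgeR adjusted p = 0.0229) and 1.57-fold in ref2-1 (log2 0.65 ± 0.13, edgeR adjusted p = 0.00173). The ref2-1 call held in all 6 fits without 1 library, and the ref5-1 call was lost without replicate 1 or 2 of wild type or replicate 1 of ref5-1, with adjusted p-values of 0.0999 to 0.12.

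The med5 mutant itself had the lowest APR1 level, 103, 108 and 114 CPM, below every wild type library. This difference did not pass edgeR's test (log2 -0.53 ± 0.13, adjusted p = 0.0777) and passed in DESeq2 (adjusted p = 0.0118). In ref5-1 med5 APR1 had 116, 109.9 and 119 CPM, overlapping med5 (log2 0.08 ± 0.13, edgeR adjusted p = 0.762). In ref2-1 med5 it had 239, 226 and 198 CPM, 2.04-fold above med5 (log2 1.03 ± 0.13, edgeR adjusted p = 9.998e-05) in a call that held in all 6 fits without 1 library. So with MED5 missing, APR1 was high in the ref2-1 background and at the med5 level in the ref5-1 background.

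Set against its own parent, ref5-1 med5 had 1.93-fold less APR1 than ref5-1, without overlap (log2 -0.95 ± 0.13, edgeR adjusted p = 0.000329), and this held in all 6 fits without 1 library. Against ref2-1, ref2-1 med5 did not pass (log2 -0.15 ± 0.13, edgeR adjusted p = 0.537) and the libraries overlapped. The difference between these MED5 effects was tested directly, a test chosen after the values were seen. It was -0.80 ± 0.19 on the log2 scale (edgeR adjusted p = 0.0318), and APR1 was the 1 enzyme called, against 1.66% of tested genes called higher and 1.28% lower. The call was lost in 6 of the 12 fits without 1 library, those without ref5-1 replicate 1, ref2-1 replicate 2, ref5-1 med5 replicate 2 or 3 and ref2-1 med5 replicate 1 or 2, with adjusted p-values of 0.0536 to 0.0904 and a value between -0.68 and -0.83. The interaction of ref5-1 with med5, which uses wild type and med5 instead of the ref2-1 pair, was -0.42 ± 0.19 for APR1 with an edgeR adjusted p of 0.529.

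**Figure D3:**
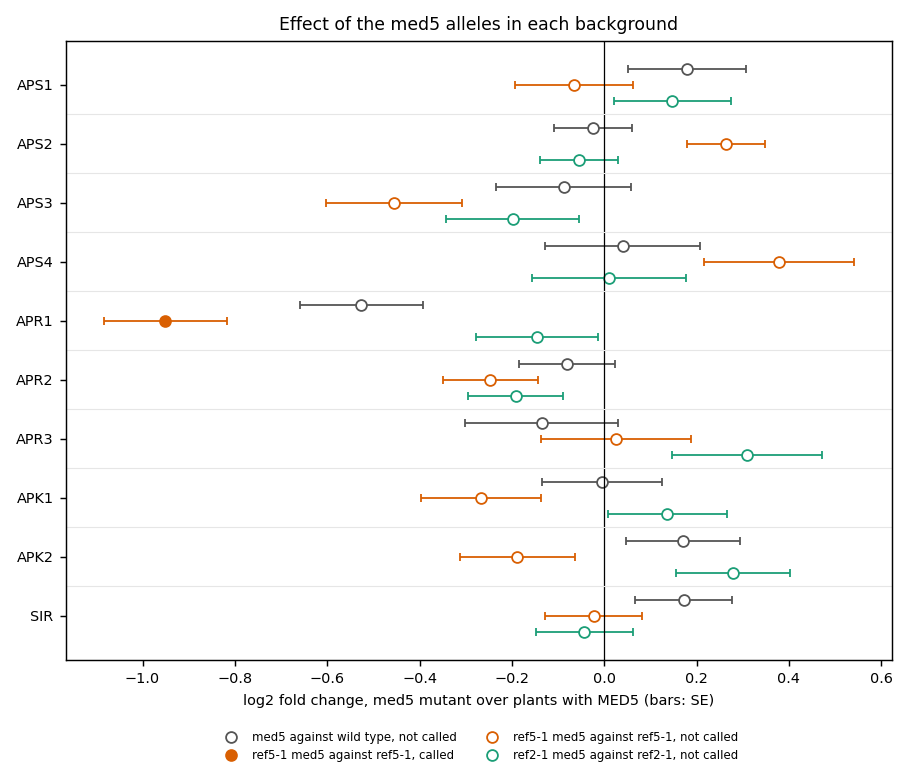
Log2 fold change of each enzyme gene on loss of MED5, in plants that are otherwise wild type, ref5-1 or ref2-1. Filled points passed the test, open points did not, and bars are SE. The single filled point is APR1 in ref5-1 med5 against ref5-1, at -0.95.

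APR2 was not called in any of the comparisons. It had 243, 273 and 303 CPM in wild type, and the genotype means ran from 251 ± 4.90 CPM in ref5-1 med5 to 298 ± 33.1 CPM in ref5-1. The log2 fold changes were 0.13 ± 0.10 in ref5-1 and 0.11 ± 0.10 in ref2-1 against wild type. The isoform known for most of the leaf activity thus showed no called change where its sister genes rose. All 3 ref5-1 med5 libraries lay below ref5-1, at 255, 245 and 252 CPM, without passing the test (log2 -0.25 ± 0.10, edgeR adjusted p = 0.133).

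The APS kinases feed glucosinolate sulfation, and against wild type or med5 both were called in the ref2-1 genotypes. APK2 had 143, 147 and 198 CPM in wild type and 251, 211 and 305 CPM in ref2-1, without overlap, a rise of 1.57-fold (log2 0.65 ± 0.12, edgeR adjusted p = 0.000945). In ref2-1 med5 it had 331, 305 and 294 CPM against 169, 179 and 200.4 CPM in med5, a rise of 1.70-fold (log2 0.76 ± 0.12, edgeR adjusted p = 0.000779). Both calls held in all 6 fits without 1 library. In ref5-1, APK2 had 173, 182 and 178 CPM, within the wild type range, and in ref5-1 med5 it had 153, 152 and 164 CPM, below med5 but not called (edgeR adjusted p = 0.277).

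APK1 moved with APK2 but by less. It had 165, 176 and 239 CPM in wild type and 262, 209 and 278 CPM in ref2-1, where the groups overlapped and the call was close to the threshold (log2 0.37 ± 0.13, edgeR adjusted p = 0.0447). With another library scaling the adjusted p was 0.0509. It was 0.13 to 0.225 on leaving out replicate 1 or 2 of wild type or replicate 1 or 3 of ref2-1. In ref2-1 med5 APK1 had 289, 269 and 266 CPM, above all med5 libraries at 191, 174 and 213 CPM (log2 0.51 ± 0.13, edgeR adjusted p = 0.0134). This call was lost without med5 replicate 1 or 2 or ref2-1 med5 replicate 1 (adjusted p 0.0543 to 0.0549). In ref5-1 it had 208, 215 and 198 CPM, inside the wild type range, and was not called.

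SIR, the single sulfite reductase of the set, is needed to turn sulfite into sulfide in the plastid. It had 414, 485 and 562 CPM in wild type and 699, 570.2 and 738 CPM in ref2-1, a rise of 1.37-fold without overlap (log2 0.46 ± 0.11, edgeR adjusted p = 0.00381) that held in all 6 fits without 1 library. In ref2-1 med5 it had 663, 619 and 665 CPM, above the 532, 505 and 609 CPM of med5, but did not pass (log2 0.24 ± 0.11, edgeR adjusted p = 0.123). In ref5-1 and ref5-1 med5 SIR averaged 531 ± 19.6 and 523 ± 1.197 CPM and was not called.

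The 2 lesions were also compared with each other. APS4 was 1.49-fold higher in ref5-1 than in ref2-1 (log2 0.58 ± 0.17, edgeR adjusted p = 0.0194), and APS3, APK2 and SIR were lower, by 1.64-fold (log2 -0.71 ± 0.15, edgeR adjusted p = 0.00214), 1.44-fold (log2 -0.52 ± 0.12, edgeR adjusted p = 0.00539) and 1.26-fold (log2 -0.33 ± 0.11, edgeR adjusted p = 0.0307). These 4 calls among 10 enzymes stand beside 21.4% of all tested genes called in either direction. In this comparison 3 of the 5 leaf markers and BGLU23 were called higher in ref5-1, and their part in the result was not tested. APS3 and APK2 held in all 6 fits without 1 library. APS4 was lost without ref5-1 replicate 1, ref2-1 replicate 1 or ref2-1 replicate 3 (adjusted p 0.0682 to 0.0803), and SIR without replicate 1 or 2 of ref5-1 or replicate 1 or 3 of ref2-1 (0.0615 to 0.141). APR1 (log2 -0.14 ± 0.13, edgeR adjusted p = 0.488) and APR3 (log2 -0.36 ± 0.16, edgeR adjusted p = 0.13) were not called different between the lesions, which does not show that they rose alike. Without ref5-1 replicate 1 the APR3 difference was called (log2 -0.57, adjusted p = 0.0142).

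Summed over isoforms, the mean of the branch towards PAPS was highest in the ref2-1 genotypes. APK1 and APK2 together reached 356 ± 70.8 CPM in wild type, 505 ± 81.6 in ref2-1 and 385 ± 11.4 in ref5-1, and ref2-1 replicate 2 at 420.4 CPM lay below wild type replicate 3 at 437 CPM. Among plants without MED5 they reached 376 ± 32.8 in med5, 585 ± 31.3 in ref2-1 med5 and 328 ± 22.9 CPM in ref5-1 med5. The 3 reductases, on the branch towards cysteine, summed to 496 ± 67.7 CPM in wild type, 674 ± 72.0 in ref2-1 and 624 ± 91.3 in ref5-1, and to 427 ± 44.3 in med5, 645 ± 26.4 in ref2-1 med5 and 472 ± 17.7 CPM in ref5-1 med5. The reductase sums of ref2-1 did not overlap wild type and those of ref2-1 med5 did not overlap med5, while ref5-1 overlapped wild type. The ratio of kinase to reductase transcript averaged 0.714 ± 0.0555 in wild type, 0.626 ± 0.0865 in ref5-1, 0.748 ± 0.057 in ref2-1, 0.882 ± 0.0666 in med5, 0.696 ± 0.0413 in ref5-1 med5 and 0.906 ± 0.015 in ref2-1 med5. It was highest in the ref2-1 med5 and med5 rosettes, whose libraries all lay above those of wild type, while ref5-1 and ref2-1 overlapped wild type. These sums and ratios are descriptions without a test. The ATP sulfurylases together varied less, from 798 ± 95.8 CPM in wild type to 1034 ± 51.7 CPM in ref2-1 med5.

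Within families the shares of the isoforms differed between genotypes. Of reductase transcript in wild type, APR2 made up 55.1% ± 1.52, APR1 31.4% ± 0.78 and APR3 13.5% ± 0.745. In ref2-1 the shares were 43.9% ± 1.48, 36.1% ± 2.59 and 19.98% ± 1.11, and in ref2-1 med5 40.1% ± 2.02, 34.2% ± 2.02 and 25.7% ± 0.369. In ref5-1 they were 47.9% ± 2.73, 35.5% ± 1.06 and 16.6% ± 1.84. APR1 had its lowest mean share in ref5-1 med5, 24.3% ± 0.465, which overlapped its share in med5, 25.5% ± 2.87. In ref5-1 med5 APR3 made up 22.5% ± 2.11. Of sulfurylase transcript, APS2 made up 29.9% ± 3.47 in wild type, 22.9% ± 0.776 in ref5-1 and 18.8% ± 1.34 in ref2-1 med5. APS1 made up 60.4% ± 3.23, 67.3% ± 0.334 and 72.1% ± 1.16 in the same genotypes. APS4 made up 2.48% ± 0.249 in wild type and 4.88% ± 0.136 in ref5-1 med5. APK1 made up 54.3% ± 0.535 of kinase transcript in wild type and 47.0% ± 0.46 in ref2-1 med5. Shares are CPM shares, not per length, and are given as descriptions.

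**Figure D4:**
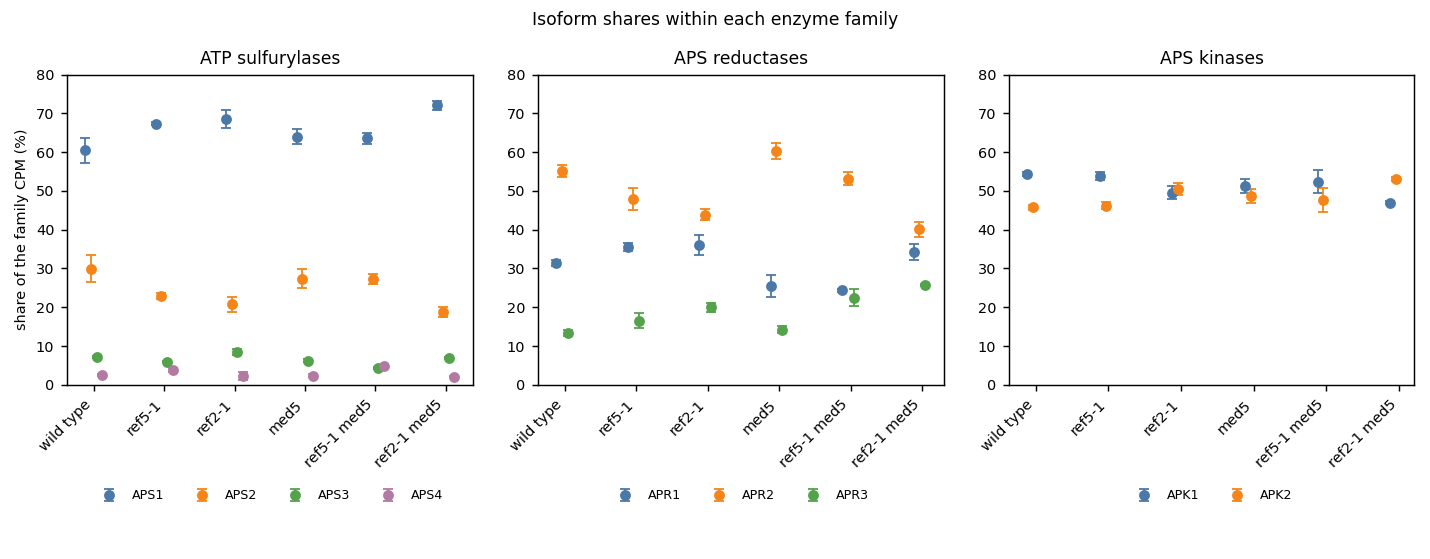
Share of each isoform in the summed CPM of its family, in percent, by genotype. Points are means and bars SD over 3 libraries. The APR2 share is lower in ref5-1, ref2-1 and ref2-1 med5 than in wild type. The APR3 share is higher in these genotypes and in ref5-1 med5, and the APS4 share is highest in ref5-1 med5.

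The genes around these enzymes were counted on lists of uptake, cysteine synthesis, glutathione synthesis, PAPS use, sulfur deficiency markers and MYB regulators. Over all comparisons, fits without 1 library lost the call of such a gene 161 times and kept it 349 times. The calls of these genes are printed below without this check. Of all tested genes, 13.5% were called higher and 11.2% lower in ref2-1 against wild type, and 5.12% and 3.60% in ref5-1. Against med5 the shares were 8.75% and 7.52% in ref2-1 med5 and 6.24% and 4.20% in ref5-1 med5. For ref5-1 med5 against ref5-1 they were 6.09% and 4.71%. Of 11 tested sulfate transporters, 5 were higher and 4 lower in ref2-1 than in wild type. Among them SULTR1;2, a root uptake transporter, was higher at 5.16 against 1.11 CPM (log2 2.21 ± 0.44), SULTR4;2, a vacuolar exporter, at 15.8 against 11.2 CPM (log2 0.49 ± 0.11), and SULTR3;5 was lower at 7.42 against 13.9 CPM (log2 -0.91 ± 0.15). In ref5-1, SULTR2;1 (log2 0.47 ± 0.09) and SULTR4;2 (log2 0.61 ± 0.11) were higher and SULTR3;5 lower (log2 -0.51 ± 0.15). The median over the uptake list was -0.0541 in ref2-1 and 0.17 in ref5-1, so the transporters did not move one way. In ref2-1 med5 against med5, 3 transporters were higher and 3 lower, and in ref5-1 med5 against med5, 1 was higher, SULTR3;1 (log2 0.59 ± 0.17).

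Downstream, SERAT2;1, a plastid serine acetyltransferase that makes the carbon skeleton of cysteine, was higher in ref5-1 (log2 0.51 ± 0.09), in ref2-1 (0.35 ± 0.09), in ref5-1 med5 against med5 (0.66 ± 0.09) and in ref2-1 med5 against med5 (0.62 ± 0.09). It was the 1 gene of 8 called in both ref5-1 comparisons. In ref2-1, OASA1, a cytosolic cysteine synthase, was also higher (log2 0.35 ± 0.09) and OASB, its plastid counterpart, lower (log2 -0.29 ± 0.10). Of the 2 glutathione synthesis genes, GSH2 was higher in ref2-1 (log2 0.59 ± 0.14) and in ref2-1 med5 against med5 (log2 0.43 ± 0.14).

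On the PAPS side, 3 of 7 genes were higher in ref2-1 and 3 in ref2-1 med5 against med5. These were the glucosinolate sulfotransferases SOT17 (log2 0.59 ± 0.10 and 0.65 ± 0.10) and SOT18 (0.63 ± 0.11 and 0.62 ± 0.11) and the PAPS transporter PAPST1 (0.53 ± 0.14 and 0.61 ± 0.14). In ref5-1 against wild type edgeR called 0 of the 7, with 2 at an unadjusted p under 0.05 and 1 called by DESeq2, and in ref5-1 med5 against med5 it called 0, with 2 and 0 by the same measures. On loss of MED5 in ref5-1, SOT18 (log2 -0.41 ± 0.11), APK3, a further APS kinase (-0.41 ± 0.11), and SAL1, a phosphatase of the PAPS by-product (-0.38 ± 0.11), were lower, beside APR1 and SULTR4;2 (-0.75 ± 0.11). In the same comparison other neighbouring genes were higher, namely the transporters SULTR2;2 (log2 0.57 ± 0.12) and SULTR3;5 (0.53 ± 0.15), SERAT2;1 (0.35 ± 0.09) and the regulators MYB28 (0.52 ± 0.16) and MYB51 (1.30 ± 0.23), and the deficiency markers SDI2 (-0.53 ± 0.14) and LSU2 (-0.79 ± 0.20) were lower. SULTR4;2 was also called in the direct test of the MED5 effect between the backgrounds (log2 -0.67 ± 0.15, edgeR adjusted p = 0.0264). That test, chosen after values were seen, called 2 of the 11 transporters lower and 0 higher, beside 1.28% and 1.66% of tested genes.

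Of 8 genes known to respond to sulfur shortage, LSU1 was called in ref5-1 (7.77 against 2.06 CPM, log2 1.91 ± 0.50), and SDI2 (log2 0.61 ± 0.14), LSU2 (0.75 ± 0.20) and LSU3 (1.31 ± 0.45) in ref2-1. In ref5-1 med5 against med5, LSU1 (1.89 ± 0.51) and LSU3 (1.59 ± 0.46) were higher, and in ref2-1 med5 against med5, SDI2 (0.69 ± 0.14), LSU2 (0.77 ± 0.21) and BGLU28 (2.70 ± 0.82). Several are low in counts, with LSU3 at 0.866 CPM in wild type and BGLU28 at 1.05 CPM in med5. Of 5 tested glucosinolate MYB regulators, MYB76 (log2 0.73 ± 0.18) and MYB51 (0.89 ± 0.23) were higher and MYB34 lower (-0.71 ± 0.19) in ref2-1. In ref5-1 against wild type edgeR called 0, DESeq2 0, and 0 had an unadjusted p under 0.05. Against med5, 3 of the 5 were called higher and 0 lower in ref2-1 med5, and 1 higher and 0 lower in ref5-1 med5. In med5 against wild type and in both interactions, edgeR and DESeq2 called 0 of the 41 tested genes on the 6 lists, with 6, 5 and 3 at an unadjusted p under 0.05.

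Over the 18 libraries, the genes most like each of the 9 enzymes called in at least 1 comparison, all but APR2, were listed by Pearson's r of log2 CPM, as a description without a test, since libraries of 1 genotype share their lesion. APK2 was most like SOT17 (r = 0.96), MAM1, an enzyme of methionine chain elongation (0.96), and FMO GS-OX3, a glucosinolate S-oxygenase (0.96). APK1 was likewise most like SOT17 (0.95). APR1 was most like MSRB5, a methionine sulfoxide reductase (0.94), SULTR4;2 (0.94) and SOT18 (0.94). APS1 and SIR shared SBP2, a selenium-binding protein gene, as the first of their lists (0.93 and 0.92). APS2 was most like the phosphate exporter homologue PHO1;H1 (0.96), APS3 like AT1G69360 (0.92), APS4 like AT2G37130 (0.93) and APR3 like AT3G04230 (0.94). Among the enzymes themselves the closest pairs were APS1 with SIR (r = 0.95) and APK1 with APK2 (0.93), and the most opposed were APS2 with APR1 (-0.73) and APS3 with APS4 (-0.67).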

How the data were processed

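The authors deposited raw read counts per gene, 1 column per library, without normalization. The submitters' processing notes name the TAIR10 build, read trimming in Trimmomatic, TopHat2 2.1.0, HTSeq 0.6.1 and edgeR. How these were set, strand included, is not given in the sources used here, so reads of genes that overlap on opposite strands cannot be told apart. Such partners exist for APS2, APS3, APS4, APR1, APR2 and APR3, and those tested were not called in any comparison. The 5 summary lines that name no gene were removed first. Reads with several alignments made up 3.71% to 25.3% of a library, highest in ref5-1 med5 replicate 1.

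The test was edgeR 4.0.16 in R 4.3.3 (TMM scaling, filterByExpr, robust quasi-likelihood fit, 1 coefficient per genotype over all 18 libraries, 19897 genes). Comparisons that share a control genotype are not independent. SE values were derived from the F statistic. Alternatives were DESeq2 1.42.0, another scaling (RLE), no filter, a non-robust fit, the compared libraries alone, a replicate block and leaving out each library. The steps were tested on simulated data. Exon lengths came from the TAIR10.1 annotation and served for CPM per kb alone, and no coordinates are given since the builds differ in name. Promoter motifs were not analysed here. The labels describe biological triplicates, and the p-values rest on the spread among them.

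The enzymes, the other gene lists and the rule for named genes (all 10 enzymes, up to 3 called genes per list and comparison by adjusted p, and the 3 most alike genes per enzyme, of which some are printed) were chosen with earlier results of these data known.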

Additional observations from a re-analysis of the deposited data

Results flagged for a closer look

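APR1 was flagged because the effect of losing MED5 differed between the ref5-1 and ref2-1 backgrounds in the direct test, by -0.80 ± 0.19 on the log2 scale (edgeR adjusted p = 0.0318). All 3 libraries of ref5-1 med5 lay below all 3 of ref5-1, while ref2-1 med5 overlapped ref2-1. The call held in 6 of the 12 fits without 1 library, and the interaction of ref5-1 with med5 was not called for APR1 (edgeR adjusted p = 0.529). The test was chosen after the values were seen, and the cause was not tested.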

How the results depend on the processing

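The number of enzymes called stayed within 1.5 times under another scaling, no filter and a non-robust fit in every comparison. With the compared libraries alone it was 1 in place of 4 for ref5-1 against wild type, 5 in place of 8 for ref2-1 against wild type, 3 in place of 1 for ref5-1 med5 against ref5-1, 1 in place of 0 for ref2-1 med5 against ref2-1 (APR3, adjusted p = 0.0458) and 2 in place of 4 for ref5-1 against ref2-1. DESeq2 called 1 in place of 0 for med5 against wild type and 3 in place of 1 for ref5-1 med5 against ref5-1, where APS2 and APS3 were added. Fits without 1 library gave 0 to 4 for ref5-1 against wild type, 4 to 7 for ref2-1 against wild type, 3 to 6 for ref2-1 med5 against med5, 1 to 2 for ref5-1 med5 against ref5-1, 2 to 5 for ref5-1 against ref2-1 and 0 to 1 for the difference of the MED5 effects. The cause was not tested. Replicate numbers were not used to pair the libraries in the main fit. No comparison had all 3 same-number correlations above 0.1, but in ref2-1 against wild type they were 0.0771, 0.183 and 0.338. There all 3 ref2-1 libraries correlated best with the wild type library of their own number. With a replicate block 2 enzymes in place of 1 were called for ref5-1 med5 against ref5-1 (APS3 added, adjusted p = 0.0191), and in the other comparisons the count stayed within 1.5 times, though the APS2 calls were lost (adjusted p = 0.062, 0.0643 and 0.052) and APS3 was called in ref2-1 med5 against med5 (0.0176). Over all tested genes, calls for ref5-1 against wild type went from 1735 to 1057 with the compared libraries alone, those for ref5-1 med5 against ref5-1 from 2149 to 1166, those for ref5-1 against ref2-1 from 4258 to 2816 and those for the ref5-1 interaction from 18 to 10. DESeq2 called 499 in place of 155 for med5 against wild type, 126 in place of 18 and 597 in place of 149 for the interactions of ref5-1 and ref2-1, and 1234 in place of 585 for the difference of the MED5 effects, and the block gave 297 for the ref2-1 interaction and 1002 for that difference. Of 110 log2 fold changes of the enzymes, 27 changed sign under some setting, and 0 of these were called. Without ref5-1 med5 replicate 1, the library with the most multiply aligned reads, 3 enzymes were called against med5 and 1 against ref5-1, as with it.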
